A study of Mus musculus with 4 samples.

Results

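Aldehyde dehydrogenases were examined in PyMT-A, a line of cultured mouse mammary tumour cells of the FVB/NJ strain, named after the polyoma middle T oncogene. The set holds 9 genes, Aldh1a1, Aldh1a2, Aldh1a3, Aldh1a7, Aldh2, Aldh3a1, Aldh3a2, Aldh3b1 and Aldh7a1, picked by gene symbol from the 33677 rows of the count table. They had been proposed with the Jagged1 and vector values of these libraries in view, so differences between the lines are given for them as a description, and no test is drawn from them. The control group was PyMT-A cells infected with PMSCV-puro virus (vector 1 and vector 2), and the other group was PyMT-A cells infected with PMSCV-Jagged1 virus (Jagged1 1 and Jagged1 2), which carries a ligand of Notch receptors. Cells of both groups grew in DMEM with serum and antibiotics, and poly(A) RNA of the cultured cells was sequenced. The labels do not say whether the infected cells were clones or pools, nor whether libraries of a line came from separate cultures, so the errors given reflect the spread among these samples alone, and that spread may be technical.

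Aldehyde dehydrogenases oxidise aldehydes to carboxylic acids with NAD or NADP as the acceptor. The ALDH1A enzymes make retinoic acid, the ligand of nuclear retinoic acid receptors, while others clear acetaldehyde, fatty aldehydes and products of lipid peroxidation, or act in amino acid breakdown. High aldehyde dehydrogenase activity is used to sort progenitor-like and tumour-initiating cells from mammary tissue and breast tumours, and Aldh1a3 is a marker of luminal progenitors.

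The 4 libraries held between 12136227 and 20835208 counts, and the floor of detection was set at 3 reads, which is 0.145 to 0.244 CPM. Levels are in CPM, counts relative to library size, scaled by the trimmed mean of M values (TMM). Jag1, the transduced gene, was at 10.5 and 9.12 CPM in vector and at 275 and 324 CPM in Jagged1 cells, which matches the labels. Of 9 epithelial markers 8 were tested, and their summed level lay between 4905 and 6740 CPM. Epcam was at 836 to 965 CPM and Krt19 had 1 read in all. Markers of other cell types were low and uneven. Summed fibroblast markers were at 4.63 and 7.17 CPM in vector, 10.7 CPM in Jagged1 1 and 69.9 CPM in Jagged1 2, where Col1a2 and Col3a1 had 280 and 83 reads against 0 in the other libraries. Leukocyte markers summed to 1.72 and 1.79 CPM in the libraries numbered 1 and to 10.5 and 11.1 CPM in those numbered 2. Lyz2 alone was at 0 in the libraries numbered 1 and at 5.78 and 6.43 CPM in those numbered 2. Ptprc had at most 1 read in a library. Cd3e was at 0 throughout. Endothelial markers reached at most 6.28 CPM and adipocyte markers at most 1.30 CPM.

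Of the 9 genes, 6 passed the low-count filter and 3 did not. Aldh1a7 had 0 reads in every library. Aldh1a1, which makes retinoic acid and is the classical gene behind aldehyde dehydrogenase activity in stem cells, had 0 reads in 3 libraries and 2 in Jagged1 2. Aldh1a2, the main retinoic acid producer of the embryo, had 1 read in Jagged1 1 and 0 elsewhere. All 3 therefore lay below the floor of 3 reads in each library, and no fold change was computed for them.

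Aldh1a1 and Aldh1a7 lie on chromosome 19 (20492715 to 20643465, plus strand, and 20692953 to 20727562, minus strand, GRCm38) and are near copies. Their coding sequences, of 1503 bases each, matched at 91.6% of aligned bases, with a longest shared run of 100 bases, so single reads of one could be assigned to the other. For the other pairs among the 9 genes the identity lay between 54.3 and 70.0%, with no shared run over 26 bases. The 250 bases before their starts are shown because both genes were silent or nearly so here. Aldh1a1 has 2 listed starts, and the one more like Aldh1a7 is given, at chr19:20601718-20601967 (plus strand), beside Aldh1a7 at chr19:20727557-20727806 (minus strand). The capitals mark the longest run of 65 bases that both share, and 73.6% of aligned bases matched. The third sequence is the start of Aldh3a2, an active gene of the set, at chr11:61267187-61267436 (minus strand), with capitals on its single match to GCGTG, the core of aryl hydrocarbon receptor sites. All are from RefSeq, GRCm38.p6.
Aldh1a1: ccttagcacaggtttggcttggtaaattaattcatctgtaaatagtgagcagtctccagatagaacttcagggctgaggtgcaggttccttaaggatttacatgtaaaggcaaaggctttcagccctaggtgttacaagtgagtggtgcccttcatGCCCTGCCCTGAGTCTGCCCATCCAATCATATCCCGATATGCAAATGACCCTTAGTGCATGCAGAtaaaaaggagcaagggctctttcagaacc
Aldh1a7: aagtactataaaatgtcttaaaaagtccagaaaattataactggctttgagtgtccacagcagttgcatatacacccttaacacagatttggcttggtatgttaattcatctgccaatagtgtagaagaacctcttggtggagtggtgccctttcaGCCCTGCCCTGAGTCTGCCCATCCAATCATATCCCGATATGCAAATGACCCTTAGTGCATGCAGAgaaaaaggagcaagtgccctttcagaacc
Aldh3a2: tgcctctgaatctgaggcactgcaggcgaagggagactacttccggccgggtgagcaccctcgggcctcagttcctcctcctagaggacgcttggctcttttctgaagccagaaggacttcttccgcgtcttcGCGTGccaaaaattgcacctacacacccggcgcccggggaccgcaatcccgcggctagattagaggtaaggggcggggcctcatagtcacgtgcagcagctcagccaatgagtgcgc

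The printed windows of Aldh1a1 and Aldh1a7 held 1 CpG each (46.4 and 43.2% G and C), whereas that of Aldh3a2 held 18 (61.2%). The window of the other Aldh1a1 start held 3 CpG (42.8%). It matched that of Aldh1a7 at 60.3% of aligned bases, with no shared run over 8 bases. Aldh1a2, which also lay below the floor, had 40 CpG (77.6%). Whether the CpG content of these windows has a part in the levels was not tested. The window of Aldh3b1, which passed the low-count filter, held 5 CpG (58.0%). Windows were given for 5 of the 9 genes, and Aldh1a3, Aldh2, Aldh3a1 and Aldh7a1 had no entry. Both strands were searched for TGGGAA, the core of sites of the Notch factor RBPJ, which was found once, before Aldh3b1, and is in 21.6% of all 32851 windows. GCGTG was found before Aldh1a2 and Aldh3a2 (28.2% of all windows), and TGACNNNGC, the core of antioxidant response elements, before Aldh1a2 (10.2%). A match describes letters only and shows no binding.

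Aldh2 had the highest level per exon length of the 9 genes, and it did not separate the lines. It encodes the mitochondrial enzyme that clears acetaldehyde. Aldh2 (chromosome 5, 121566027 to 121593824, minus strand) was at 212 and 271 CPM in vector 1 and 2 and at 189 and 287 CPM in Jagged1 1 and 2. The lowest and the highest library were both Jagged1 libraries, and the groups overlapped. Means were 242 ± 41.3 CPM in vector against 238 ± 69.5 CPM with Jagged1 (SD, n = 2), with a log2 fold change of -0.02 ± 0.25 (SE).

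Within the ALDH3 branch, whose enzymes act on fatty and aromatic aldehydes, 1 of the tested genes had groups without overlap. Over all tested genes, both Jagged1 libraries were higher in 13.9% and lower in 15.1%. Aldh3a1, known as the main soluble aldehyde dehydrogenase of the cornea, was at 12.7 and 15.4 CPM in vector 1 and 2 and at 47.8 and 28.2 CPM in Jagged1 1 and 2 (192, 189, 987 and 390 reads). The groups did not overlap, and Jagged1 1 was 1.70 times as high as Jagged1 2. The mean was 14.0 ± 1.91 CPM in vector against 38.0 ± 13.9 CPM with Jagged1 (SD, n = 2), which is 2.70-fold higher, and the log2 fold change was 1.44 ± 0.30 (SE). Of 13299 tested genes, 98.7% had a smaller or equal absolute log2 fold change. The gene was proposed with this contrast in view, so nothing is read from that rank. Comparing Jagged1 1 with vector 1 gave a log2 difference of 1.90, and Jagged1 2 with vector 2 one of 0.87. The fitted value was 1.01 without Jagged1 1, 1.77 without Jagged1 2, 1.33 without vector 1 and 1.58 without vector 2. Since the groups did not overlap, leaving out 1 library could not change the sign, and nothing is read from it.

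**Figure D1:**
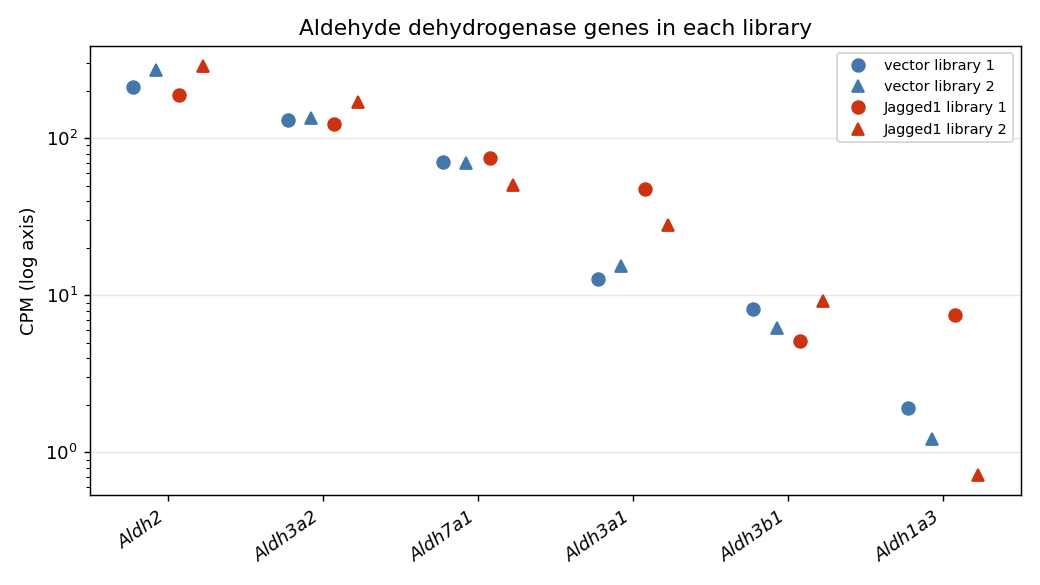
Level of the 6 tested genes in each library (CPM, log axis), with genes ordered by mean level, blue symbols for vector, red for Jagged1, circles for library 1 and triangles for library 2. Aldh3a1 is the gene whose red symbols (47.8 and 28.2 CPM) both lie above its blue ones (12.7 and 15.4 CPM), and Aldh1a3 has its highest and lowest level in the Jagged1 libraries.

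Aldh3a2, the neighbour of Aldh3a1 on chromosome 11, did not share this pattern. Aldh3a1 (61207537 to 61218421) is on the plus strand and Aldh3a2 (61223417 to 61267464) on the minus strand, and their annotated exons do not overlap. Aldh3a2 encodes fatty aldehyde dehydrogenase, the enzyme deficient in Sjögren-Larsson syndrome. Its level was 131 and 135 CPM in vector 1 and 2 and 124 and 171 CPM in Jagged1 1 and 2, so the groups overlapped and Jagged1 2 was the highest library. The log2 fold change was 0.15 ± 0.20 (SE), and -0.10 without Jagged1 2. Their coding sequences matched at 68.2% of aligned bases, with no shared run over 20 bases.

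Aldh3b1, which acts on lipid-derived aldehydes at membranes, was at 8.13 and 6.19 CPM in vector 1 and 2 and at 5.13 and 9.17 CPM in Jagged1 1 and 2. Again the lowest and the highest library were both Jagged1 libraries. The log2 fold change was -0.01 ± 0.38 (SE). It was 0.35 without Jagged1 1 and -0.48 without Jagged1 2, and 0.22 and -0.20 without vector 1 or vector 2.

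Aldh7a1, antiquitin of lysine breakdown, was at 71.1 and 69.9 CPM in vector 1 and 2 and at 74.5 and 50.3 CPM in Jagged1 1 and 2. The vector libraries were 1.02-fold apart, and the low library was Jagged1 2. The log2 fold change was -0.17 ± 0.22 (SE), -0.49 without Jagged1 1 and 0.08 without Jagged1 2. Exons of Phax on the opposite strand overlap 5.79% of the exon length of Aldh7a1, and reads there cannot be assigned without strand.

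Aldh1a3 was the 1 gene of the retinaldehyde branch above the floor in all libraries, and 1 library carried its level. It makes retinoic acid, and lies on chromosome 7 (66390890 to 66427517, minus strand). Its counts were 29 and 15 in vector 1 and 2 and 156 and 10 in Jagged1 1 and 2. In CPM these were 1.92 (95% exact Poisson interval 1.28 to 2.75), 1.22 (0.684 to 2.01), 7.55 (6.41 to 8.83) and 0.722 (0.346 to 1.33), where the intervals cover counting error only. Jagged1 1 was the highest and Jagged1 2 the lowest library, and their intervals did not overlap.

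The CPM of Aldh1a3 was 10.5-fold apart between the Jagged1 libraries. With a prior count of 2 the log2 gap was 3.17, where the median over all tested genes was 0.28. A smaller or equal gap was found in 99.5% of tested genes. The log2 fold change between the lines was 1.41 ± 1.02 (SE). It was -1.12 without Jagged1 1, 2.25 without Jagged1 2, 1.79 without vector 1 and 1.12 without vector 2. The difference between the lines therefore changed direction without Jagged1 1. In RNA of a whole culture, fewer cells with the transcript and less RNA per cell cannot be told apart.

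**Figure D2:**
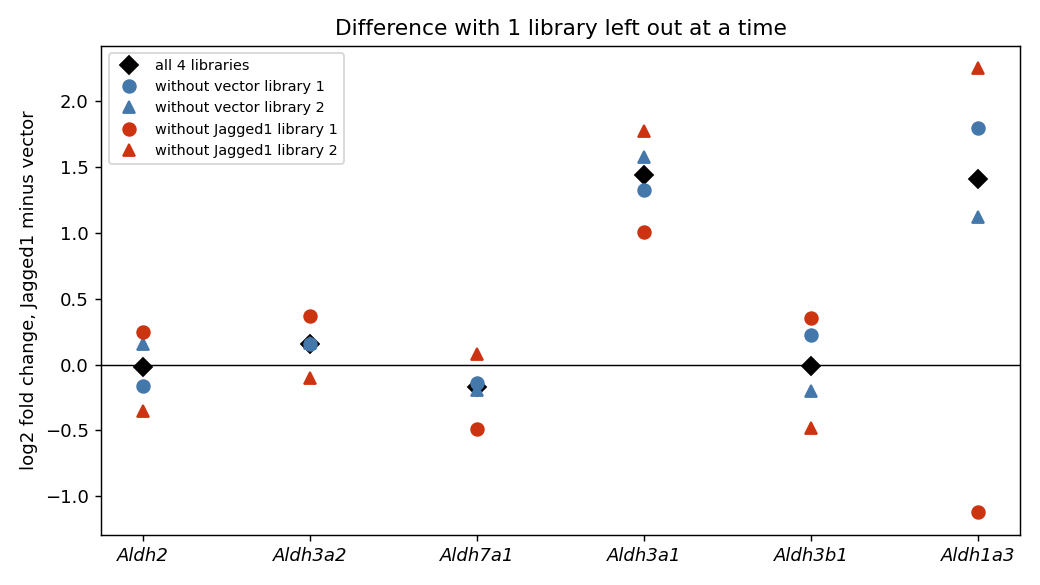
Log2 fold change of the 6 tested genes (vertical axis, Jagged1 minus vector) with all 4 libraries (black diamonds) and with 1 library left out (blue or red, circle for library 1, triangle for library 2). Aldh3a1 stays between 1.01 and 1.77, Aldh1a3 goes from 2.25 to -1.12, and the other 4 genes lie on both sides of 0.

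The calls of the fits across all genes are counted here for completeness, and since the genes were chosen with this contrast in view, nothing is read from these counts. In edgeR's quasi-likelihood fit 0 of the 6 passed 0.05 after adjustment over all tested genes, where 0.00752% of all tested genes passed (1 gene, Jag1). limma-voom called 0 of the 6 (0.00752% of all tested genes), and DESeq2 called 1, Aldh3a1 (0.353%). edgeR called the same 1 gene without the low-count filter (0.686%) and 0 of the 6 with the replicate number as a block (0.128%). Each Jagged1 library was above each vector library in 1 of the 6, where the share over all tested genes was 13.9%, and below in 0 of the 6, where it was 15.1%. The median log2 fold change was 0.07 over the 6 and -0.003 over all tested genes.

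Per length, the 9 genes spanned the whole range of the family. In CPM per kilobase of annotated exon, averaged over the 4 libraries, Aldh2 stood at 46.8, Aldh3a2 at 24.9, Aldh3a1 at 13.4, Aldh7a1 at 12.8, Aldh3b1 at 3.50 and Aldh1a3 at 0.618. Aldh3a1 and Aldh7a1, neighbours in this order, changed places between the lines. Aldh3a1 was at 6.54 and 7.92 in vector, below the 13.7 and 13.5 of Aldh7a1, and at 24.6 and 14.5 in Jagged1 cells, above the 14.4 and 9.71 of Aldh7a1. Between Aldh3a2 and Aldh3a1 the order held in vector, while in Jagged1 1 Aldh3a1 (24.6) was above Aldh3a2 (22.0).

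**Figure D3:**
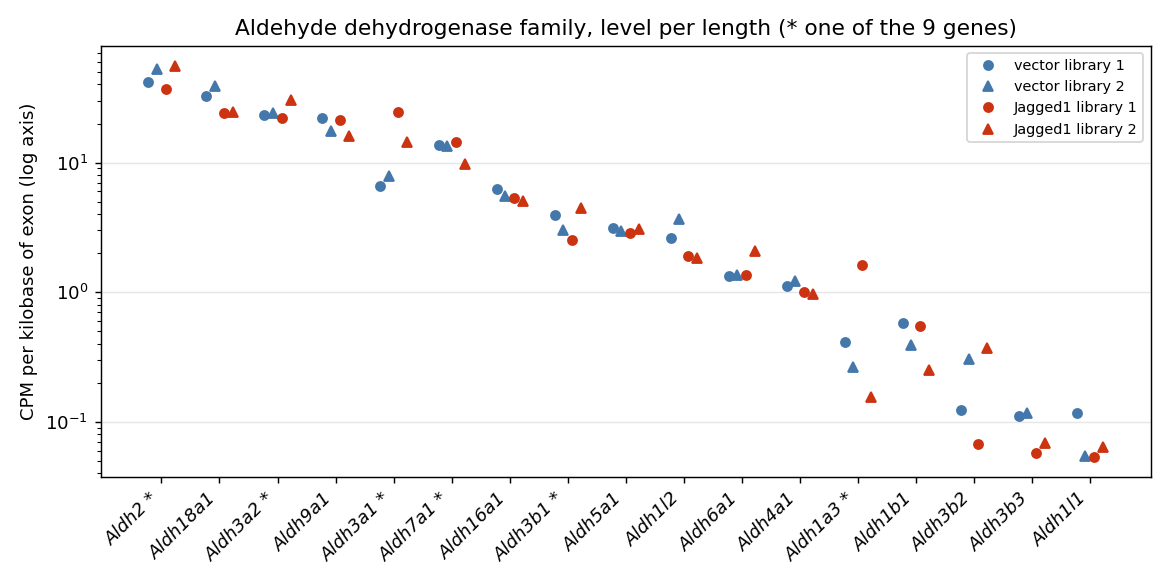
Level per length of the family genes with a mean of at least 0.05 CPM per kilobase of exon (log axis), ordered by that mean, with the chosen genes starred and symbols as in the plot of levels by library. Aldh2 (46.8) and Aldh18a1 (30.0) lead, and Aldh1a3 (0.618) lies near the low end.

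The table held 12 further aldehyde dehydrogenase genes, of which 8 were tested. Of these 7 had negative and 1 a positive log2 fold change, where 49.5% of all tested genes were positive. In 4 each Jagged1 library was below each vector library, where the share over all tested genes was 15.1%. After adjustment 0 were called in edgeR (0.00752% of all tested genes), DESeq2 (0.353%) or limma-voom (0.00752%). In each tool 2 had an unadjusted p under 0.05, where the edgeR share over all tested genes was 3.96%. Their median log2 fold change was -0.21, against 0.07 for the 6 chosen genes and -0.003 for all tested genes. The summed level of the 12 genes was 294 and 310 CPM in vector and 246 and 233 CPM in Jagged1 cells.

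Aldh18a1, which makes the proline precursor pyrroline-5-carboxylate, was at 132 and 159 CPM in vector and at 98.1 and 99.9 CPM in Jagged1 cells, with a log2 fold change of -0.56 ± 0.16 (SE). Aldh1l2, the mitochondrial enzyme of formyl-tetrahydrofolate, was at 19.5 and 27.7 CPM in vector and at 14.4 and 13.8 CPM in Jagged1 cells, -0.74 ± 0.23 (SE). In both genes the groups did not overlap, but neither passed after adjustment in edgeR (adjusted p = 1.0 for each). Exons of D10Wsu102e on the opposite strand overlap 14.1% of the exon length of Aldh1l2. Aldh9a1, of carnitine synthesis, stood at -0.07 ± 0.21 and Aldh16a1 at -0.17 ± 0.16.

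**Figure D4:**
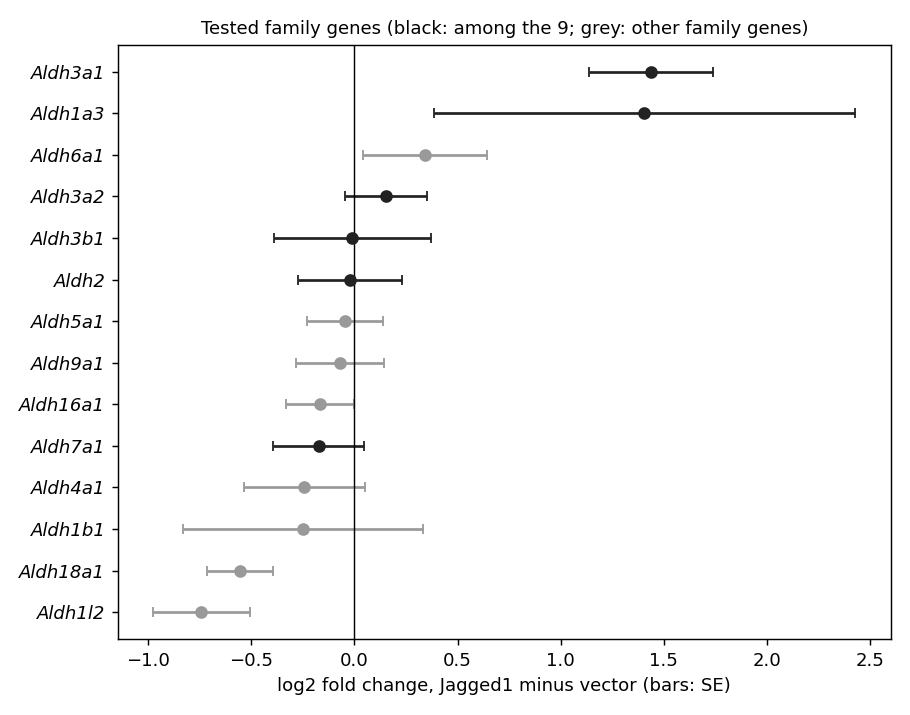
Log2 fold change (horizontal axis, Jagged1 minus vector, bars show SE) of the 14 tested family genes, black for the chosen genes and grey for the others. Aldh3a1 (1.44) and Aldh1a3 (1.41) lie at the positive end, Aldh1a3 with an SE of 1.02, and Aldh18a1 (-0.56) and Aldh1l2 (-0.74) at the negative end.

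The retinoid pathway, in which the ALDH1A enzymes act between retinol oxidation and the nuclear receptors, was described with 22 genes, of which 14 were tested. Log2 fold changes were positive in 9 and negative in 5 (49.5% of all tested genes were positive), with a median of 0.21. Each Jagged1 library was above each vector library in 5 of the 14 (13.9% of all tested genes) and below in 1 (15.1%). None passed in edgeR (0 called, 0 with an unadjusted p under 0.05), DESeq2 (0 called, 1 with an unadjusted p under 0.05) or limma-voom (0 and 0). Over all tested genes edgeR and limma-voom each called 0.00752% and DESeq2 0.353%. The edgeR share at an unadjusted p under 0.05 was 3.96%. Without Jagged1 1 a single gene of the list was called, Adh7, a retinol-oxidising alcohol dehydrogenase, at -1.25 ± 0.28 (SE; edgeR adjusted p = 0.0151), in a fit that called 193 genes, 1.38% of all tested, against 0.00752% with all 4 libraries. It was at 41.1 and 32.2 CPM in vector and at 37.1 and 15.5 CPM in Jagged1 1 and 2.

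The retinoid genes with the highest CPM did not separate the lines, with 1 exception. Rarg, a retinoic acid receptor, was at 180 and 188 CPM in vector and at 192 and 173 CPM in Jagged1 cells. Rdh10, which oxidises retinol to retinaldehyde, stood at -0.14 ± 0.22 and Fabp5, a carrier of retinoic acid and fatty acids, at 0.16 ± 0.21. Rxra, the partner of the retinoic acid receptors, was at 112 and 108 CPM in vector and at 133 and 130 CPM in Jagged1 cells. Both Jagged1 libraries were higher, as in 13.9% of all tested genes. Its log2 fold change was 0.26 ± 0.14 (edgeR unadjusted p = 0.122). Rbp4, Lrat, Adh1 and Rxrg were at 0 in all libraries.

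Cyp26b1, which degrades retinoic acid and was picked out after its values were seen, was at 1.06 and 2.28 CPM in vector and at 6.29 and 2.89 CPM in Jagged1 1 and 2. Like Aldh1a3 it was highest in Jagged1 1, but unlike Aldh1a3 its groups did not overlap. Its log2 fold change was 1.48 ± 0.59 (SE). Both Jagged1 libraries were also higher in 13.9% of all tested genes, and in 5 of the 14 tested retinoid genes, Cyp26b1 among them.

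**Figure D5:**
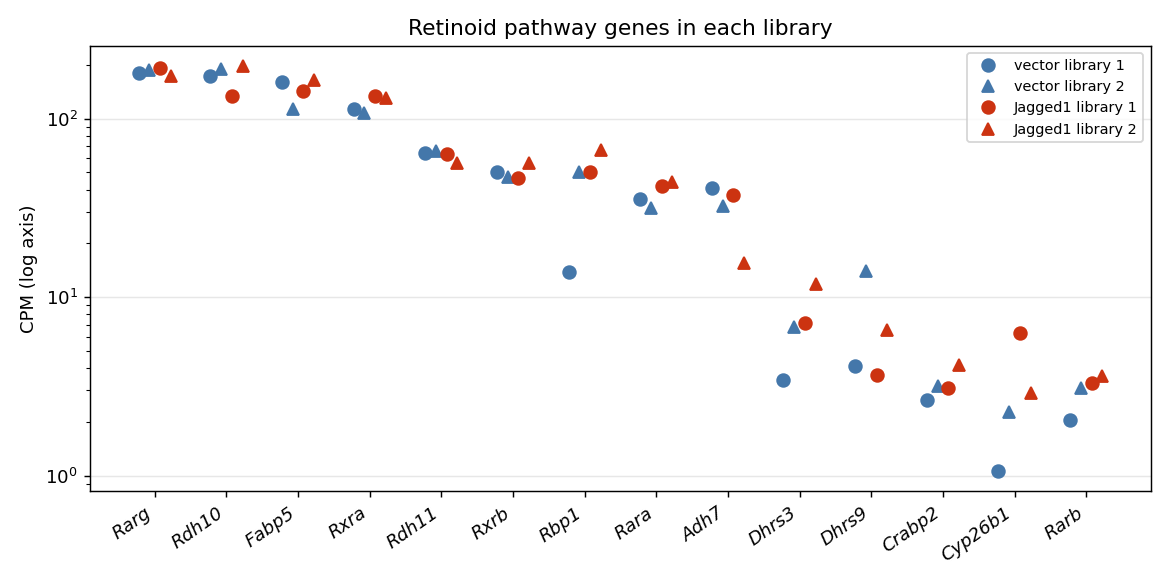
Level of the 14 tested retinoid pathway genes in each library (CPM, log axis), ordered by mean level, blue for vector and red for Jagged1, circles for library 1 and triangles for library 2. Rarg, Rdh10, Fabp5 and Rxra lead at over 100 CPM, and Cyp26b1 has its red symbols (6.29 and 2.89 CPM) above its blue ones.

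Other enzymes that remove aldehydes were given by 16 genes, of which 15 were in the table and 12 tested. Of these 7 were positive and 5 negative (49.5% of all tested genes were positive), with a median of 0.03. After adjustment 0 were called in edgeR (0.00752% of all tested genes), DESeq2 (0.353%) or limma-voom (0.00752%). In each tool 0 had an unadjusted p under 0.05, where the edgeR share was 3.96%. In 3 of them (13.9% of all tested genes) each Jagged1 library was above each vector library. The 4 with the highest CPM were Akr1a1, an aldehyde reductase, at 0.04 ± 0.15, Gsta4, which conjugates hydroxynonenal to glutathione, at 0.37 ± 0.19, the esterase gene Esd at -0.25 ± 0.20 and Adh5, formaldehyde-clearing alcohol dehydrogenase, at 0.02 ± 0.16 (log2 fold change ± SE). Akr1a1 was at 480 to 512 CPM in the 4 libraries. Aox3 was at 0 throughout.

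Since Aldh1a3 marks luminal progenitors, the mammary marker lists are set beside it. Of 10 progenitor markers 7 were tested, all 7 with positive log2 fold changes (49.5% of all tested genes were positive). In 3 each Jagged1 library was above each vector library (13.9%), and in 4 the groups overlapped. Among these 4, Cd14 was at 208 and 228 CPM in vector and at 173 and 386 CPM in Jagged1 1 and 2. Itga2 was at 68.0 and 118 CPM in vector and at 58.8 and 174 CPM in Jagged1 1 and 2. Both were thus lowest in Jagged1 1 and highest in Jagged1 2. In edgeR 0 were called (0.00752% of all tested genes) and 3 had an unadjusted p under 0.05 (3.96%). limma-voom called 0 (0.00752%), and DESeq2 called 1, Itgb3 (0.353%). The summed level of the progenitor list was 607 and 717 CPM in vector, 621 CPM in Jagged1 1 and 1175 CPM in Jagged1 2, so its highest library was the one in which Aldh1a3 was lowest. Itgb3, an integrin chain, was at 1.39 and 1.55 CPM in vector and at 15.3 and 4.19 CPM in Jagged1 1 and 2, highest in the library where Aldh1a3 was highest. Elf5, a regulator of luminal progenitors, was at 75.0 and 54.6 CPM in vector and at 91.3 and 105 CPM in Jagged1 cells. Kit was at or below 0.339 CPM in all libraries.

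The basal list summed to 849 and 563 CPM in vector and to 1173 and 782 CPM in Jagged1 1 and 2. Of its 11 genes 5 were tested, edgeR called 0 (0.00752% of all tested genes), and Krt5 had 2 reads or fewer. Log2 fold changes were positive in 4 and negative in 1 (49.5% of all tested genes were positive). Their median was 0.69, against 0.60 for the progenitor list. Each Jagged1 library was above each vector library in 2 (13.9% of all tested genes) and below in 1 (15.1%). The mature luminal list summed to 2578 and 2225 CPM in vector and to 2440 and 2025 CPM in Jagged1 cells. Of its 10 genes 7 were tested, edgeR called 0 (0.00752% of all tested genes), and Pgr and Cited1 were at 0. Log2 fold changes were positive in 4 and negative in 3. Each Jagged1 library was above each vector library in 2 (13.9% of all tested genes) and below in 2 (15.1%). The part of these marker levels, or of the fibroblast genes read in Jagged1 2, in the level of Aldh1a3 or Aldh3a1 was not tested.

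For the 3 of the 9 genes with the highest CPM, the tested genes with the most similar course over the 4 libraries were looked up. Likeness was the root mean square difference of centred log2 CPM. For Aldh2 these were Ptpdc1 and Mansc1 (0.012 each), for Aldh3a2 Igf2r (0.0096) and Dcaf8 (0.014), and for Aldh7a1 Polr1b (0.011) and Nup160 (0.017). The match rests on 4 libraries only.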

How the data were processed

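The submitters' processing notes name STAR 2.6.0c, featureCounts 1.6.2 and the mouse genome mm10 (GRCm38). For the annotation release and the strand setting, the sources used here give nothing. The authors deposited 1 table of raw counts with gene symbols as rows and the 4 libraries as columns, neither normalized nor pooled. Groups follow the virus named in the labels. Genes were filtered with filterByExpr (minimum count 10), scaled by TMM and tested with edgeR 4.0.16's quasi-likelihood F test (robust, legacy) in R 4.3.3, with Benjamini-Hochberg adjustment over 13299 genes at 0.05. The procedure was tested on simulated counts with the same dispersion for every gene, which need not match the spread of these libraries. Standard errors (SE) were derived from the log2 fold change and its F statistic. DESeq2 1.42.0 and limma 3.58.1 (voom) were alternatives, with other size factors, filters, a replicate block and each library left out. Within a line, counts differed by more than sampling noise (chi-square per degree of freedom 32.3 and 50.6). Each library was taken as 1 replicate, though this spread does not show that the libraries came from separate cultures. No permutation test was run, since the smallest exact two-sided p at this size is 0.333. Exon lengths, loci and coding sequences come from GENCODE M21 (GRCm38), which need not be the authors' annotation. Log2 differences between single libraries, of one number or of one line, use a prior count of 2.

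The genes and lists were chosen with earlier results of these data known. Named by rule were the 9 genes, Jag1, the 4 most abundant members of each pathway list, called members and members at 0. For the 3 most abundant of the 9 genes the 2 most similar tested genes with a range of at least 0.3 (log2 CPM) were named. The 8 marker lists (luminal progenitor, mature luminal, basal, epithelial, fibroblast, adipocyte, leukocyte and endothelial) served as a description. Single markers from these lists, Cyp26b1 and the genes of the aryl hydrocarbon receptor battery were named outside this rule, with their values in view.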

Additional observations from a re-analysis of the deposited data

How the results depend on the processing

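The count of genes past the adjusted threshold was 1 with edgeR and moved to 47 with DESeq2, 169 without the low-count filter and 17 with the replicate number as a block. It ranged from 0 to 193 with 1 library left out (0 without either vector library, 193 without Jagged1 1 and 49 without Jagged1 2). It stayed at 1 with limma-voom, with RLE size factors and with a minimum mean of 5 CPM. Of the 6 tested genes 0 passed in the main analysis, and 1, Aldh3a1, passed with DESeq2 (0.353% of all tested genes) and without the filter (0.686%), while leaving out 1 library gave 0 to 1 (1 without Jagged1 2, beside 0.352%). Nothing is read from these calls, since the genes were chosen on this contrast. The retinoid list had 0 to 1 called with 1 library left out (1 without Jagged1 1, beside 1.38%). The cause of these changes was not tested.

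Libraries of the same number deviated together from their group means (r = 0.43 over 13299 genes, which are not independent replicates), but with 2 pairs and no label that ties them the numbers were not taken as pairs. Under the replicate block 0 of the 6 genes passed, with Aldh3a1 at 1.40 and Aldh1a3 at 0.94. Over its 10 alternatives Aldh3a1 was positive in 10, a sign that its separated groups fix when 1 library is left out. Aldh1a3 was positive in 8 of 9, since a minimum mean of 5 CPM removes it. Aldh2, Aldh3a2, Aldh3b1 and Aldh7a1 changed sign in 2, 1, 3 and 1 of 10.

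At these depths Aldh1a1, Aldh1a2 and Aldh1a7 were not detectable above 3 reads.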

Other observations

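Aldh3a1 is known as a member of the aryl hydrocarbon receptor gene battery, so other genes of that battery were looked up after its values were seen, as a description only. Cyp1b1 was at 146 and 90.5 CPM in vector and at 173 and 160 CPM in Jagged1 cells, with both Jagged1 libraries higher, as in 13.9% of all tested genes, and a log2 fold change of 0.49 ± 0.25 (SE). Nqo1, which is also a target of NRF2, was at 4.03 and 3.75 CPM in vector, 6.05 CPM in Jagged1 1 and 0.361 CPM in Jagged1 2. Tiparp was at 41.4 and 36.2 CPM in vector and at 38.7 and 25.9 CPM in Jagged1 cells. Cyp1a1 had at most 14 reads and Ahrr at most 3 in a library, and neither was tested. The receptor gene Ahr stood at 0.12 ± 0.41. Nfe2l2, the gene of NRF2, stood at -0.24 ± 0.21, and its groups overlapped, as did those of Nqo1, Tiparp and Ahr.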
